A study of Spodoptera frugiperda with 15 samples.

Results

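The genes described here are those of chitin turnover and the peritrophic matrix in the fall armyworm, *Spodoptera frugiperda*. They are the 27 of 20784 genes in the deposited table whose description names a chitin synthase, chitinase, chitin deacetylase, chitotriosidase, peritrophin, peritrophic or intestinal mucin protein, or chitin binding, and does not name the cuticle. The choice used descriptions alone and no measured value, though it was made with earlier results of these data known. It found 4 chitin synthase genes, 13 chitinase genes, 1 chitin deacetylase gene and 9 peritrophin genes, and no gene described as a chitotriosidase, an intestinal mucin or a chitin-binding protein. RNA from wild-type whole bodies was sequenced after selection for poly(A) tails, in 15 libraries of 5 groups with 3 libraries each. One group was a control, whose handling the labels do not describe, and each of the others received 1 insecticide. These were cyantraniliprole, a diamide that opens ryanodine receptors, spinetoram, a spinosyn that targets nicotinic acetylcholine receptors, emamectin benzoate, of the avermectins, which target chloride channels gated by glutamate, and tetrazolidamide, known here by its name alone. Dose, exposure time, stage and age are not stated, nor is it stated that replicates were separate animals, so p-values measure only the spread between these samples.

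Chitin is a polymer of N-acetylglucosamine that insects lay down in the cuticle and trachea and in the peritrophic matrix, a sleeve that lines the midgut lumen and separates food from the epithelium. Chitin synthases polymerise it at the cell membrane. In insects generally a class A enzyme serves the cuticle and trachea and a class B enzyme serves the midgut. Peritrophins bind chitin fibrils through cysteine-rich domains and give the matrix its structure, chitin deacetylases change the polymer after it is made, and chitinases cut it, most of all when an old cuticle is shed. In whole-body RNA, fewer cells of a type cannot be told apart from less RNA per cell.

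Levels are given as FPKM, fragments per kilobase of transcript scaled to library depth, as the authors deposited them, so that genes can be compared per length. Changes are log2 fold changes fitted with edgeR to the deposited estimated counts, and a gene is called changed at an adjusted p under 0.05 over all 15505 genes tested. Totals ran from 50600821 to 77183281 count units per library, and about 3.81 units correspond to 1 read pair. Of the 27 genes, 26 had enough counts to be tested. The exception was a probable chitinase 2 gene (LOC118279298), at 0 in 14 libraries and 0.122 FPKM in emamectin benzoate 1. The control libraries were not alike: of the 25 genes seen in any control, 20 had their highest control level in control 3, all 8 of the peritrophins and all 4 of the chitin synthases among them.

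Several of the genes come in sets that the counting may have divided. On the sequence NC_049727.1 a gene described as chitin synthase and one described as chitin synthase A lie 1.6 kb apart (LOC118273395 and LOC118273150), and the same arrangement recurs 218.1 kb on with a gap of 1.7 kb (LOC118273105 and LOC118273112). On NC_049737.1 a peritrophin-44-like gene lies 1.8 kb from a probable chitinase 2 gene (LOC118279986 and LOC118280071), and this too recurs 681.6 kb on (LOC118279993 and LOC118280065). In the later RefSeq annotation of the species, 17 of the 27 identifiers have an entry and 10 have none. Pairs were defined as 2 identically described genes on the same sequence, of which the later annotation keeps 1. That 1 of each pair is kept is thus part of the definition and not a result. There are 6 such pairs, with 12 genes. Between the 2 genes of a pair, Spearman rho over the 15 libraries ran from 0.25 (LOC118280065 and LOC118280071) to 0.889 (LOC118264308 and LOC118264314). Whether their sequences are near identical was not tested, no sequence being used here, and values of single genes in these pairs are uncertain in how reads were shared. The later annotation lists LOC118274190, one of the peritrophin-like genes, as a transcribed pseudogene. Of that cluster of 4 on NC_049728.1, LOC118274189 and LOC118274191 overlap on the same strand, so their values are uncertain as well. The authors' orthology annotation gives the chitinase term K01183 to 10 of the 13 chitinases and also to these 4 peritrophin-like genes, and the chitin synthase term K00698 to all 4 synthases.

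The pair of genes described as chitin synthase without a letter stood above control in all 4 treatments. LOC118273105 (NC_049727.1, 9357354 to 9377150, plus strand) had 9.59, 7.05 and 19.2 FPKM in the 3 controls. It had 46.8, 33.3 and 50.8 FPKM with emamectin benzoate, 31.5, 21.2 and 37.0 with tetrazolidamide, 33.0, 31.0 and 54.3 with cyantraniliprole, and 40.6, 31.6 and 40.5 with spinetoram. Each of the 12 treated libraries was thus above the highest control, control 3. The log2 fold change was 1.97 (SE 0.36, adjusted p = 0.0177) for emamectin benzoate, 1.52 (SE 0.35, adjusted p = 0.0097) for tetrazolidamide, 1.70 (SE 0.36, adjusted p = 0.031) for cyantraniliprole and 1.79 (SE 0.36, adjusted p = 0.0232) for spinetoram. These comparisons share the same 3 controls. The test of any difference among the 5 groups gave an adjusted p of 0.0164.

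LOC118273395, the other gene of that description (NC_049727.1, 9089566 to 9108856, plus strand), had 7.73, 6.99 and 15.8 FPKM in control. It had 36.9, 25.1 and 42.7 FPKM with tetrazolidamide and 34.0, 24.3 and 18.6 with spinetoram, and it rose in both, by 1.97 (log2, SE 0.34, adjusted p = 0.00226) and 1.47 (SE 0.34, adjusted p = 0.036). With emamectin benzoate it had 25.3, 25.9 and 18.6 FPKM and with cyantraniliprole 20.2, 17.2 and 29.6, all above the controls. Those differences of 1.28 and 1.11 (log2) did not pass, with adjusted p = 0.0551 and 0.0972. Both passed without control 3 (adjusted p = 0.0273 and 0.0305), the gene's highest control, whose omission raises the fold change by construction. With the counts of both genes summed the log2 fold changes were 1.70 (emamectin benzoate), 1.74 (tetrazolidamide), 1.46 (cyantraniliprole) and 1.66 (spinetoram), with adjusted p = 0.021, 0.00336, 0.0387 and 0.0231. For the summed pair, tetrazolidamide was not called different from emamectin benzoate, cyantraniliprole or spinetoram, at log2 differences of 0.04, 0.28 and 0.09 (adjusted p = 0.949, 0.633 and 0.902).

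Single libraries decided some of these calls. The call of LOC118273105 with emamectin benzoate ended without control 1 or emamectin benzoate 3 (adjusted p = 0.0532 and 0.0825). With cyantraniliprole it ended without control 1, control 2, tetrazolidamide 1, cyantraniliprole 1 or cyantraniliprole 3 (adjusted p from 0.051 to 0.126), and with spinetoram without control 1, control 2, spinetoram 1 or spinetoram 2 (from 0.0503 to 0.097). With tetrazolidamide it held without any single library. In fits of only the 2 groups compared its call ended with tetrazolidamide (0.0679), emamectin benzoate (0.117), cyantraniliprole (0.156) and spinetoram (0.1755). Leaving out 1 library ended the call of LOC118273395 with spinetoram in several cases (from 0.0511 to 0.15). These were control 1, control 2, any emamectin benzoate library, tetrazolidamide 1, cyantraniliprole 1, spinetoram 1 and spinetoram 2. A fit of only spinetoram and control ended that call too (0.2055). The call of LOC118273395 with tetrazolidamide held in each of 24 alternatives.

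**Figure D1:**
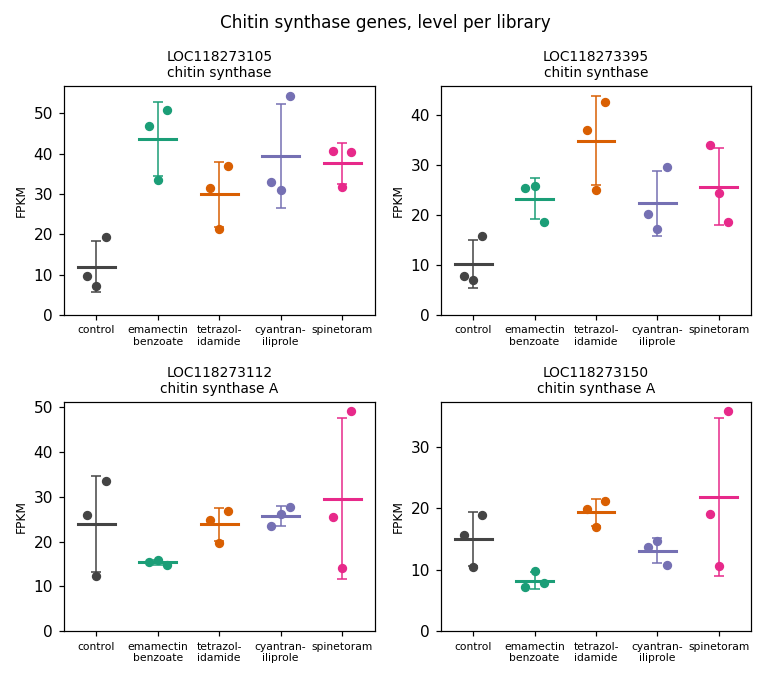
Level of the 4 chitin synthase genes in each library. The y axis is FPKM from 0 and the x axis the 5 groups, with a point per library, a bar at the mean and error lines of 1 SD (n = 3). In the upper panels all treated libraries of LOC118273105 and LOC118273395 lie above the controls, and in the lower panels emamectin benzoate lies lowest on average for both chitin synthase A genes and spinetoram 3 is the highest point.

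The chitin synthase A genes did not follow the same pattern. LOC118273150 (NC_049727.1, 9110458 to 9139218, plus strand) had 15.7, 10.4 and 19.0 FPKM in control and 7.10, 9.76 and 7.76 with emamectin benzoate, the 3 treated libraries below the 3 controls. That difference did not pass (log2 fold change -0.79, SE 0.35, adjusted p = 0.23). With tetrazolidamide it had 19.8, 16.9 and 21.2 FPKM, above all emamectin benzoate libraries, and between these treatments the gene differed by 1.32 (SE 0.35, adjusted p = 0.0245). This call ended without any 1 of the 3 emamectin benzoate libraries, tetrazolidamide 1 or tetrazolidamide 3 (adjusted p from 0.052 to 0.0915), and the pair summed gave 0.96 with adjusted p = 0.0911. LOC118273112 (NC_049727.1, 9378865 to 9407535, plus strand) had 25.9, 12.3 and 33.4 FPKM in control, 15.4, 16.0 and 14.8 with emamectin benzoate and 24.9, 19.8 and 26.8 with tetrazolidamide. It had 23.4, 26.2 and 27.7 with cyantraniliprole and 25.4, 14.1 and 49.2 with spinetoram, and was called in none of the 8 tests, at log2 fold changes against control from -0.55 to 0.42.

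The balance between the 2 kinds of synthase can be read within each library. The summed level of the unlettered pair was 0.417, 0.619 and 0.668 times that of the chitin synthase A pair in the 3 controls. It was 3.20, 2.30 and 3.07 times with emamectin benzoate, 1.53, 1.26 and 1.66 with tetrazolidamide, 1.44, 1.18 and 2.18 with cyantraniliprole, and 1.67, 2.26 and 0.695 with spinetoram. Chitin synthase A was the more abundant in each control, and the unlettered pair was the more abundant in each treated library but spinetoram 3, where both chitin synthase A genes had their highest level of the 15 libraries. Across the 15 libraries LOC118273112 and LOC118273150 were most like the 2 probable chitinase 10 genes of NC_049715.1 and the deacetylase (Spearman rho of log2(FPKM + 1) 0.932 and 0.904 for the former with LOC118264314 and LOC118264308, and 0.846 and 0.821 for the latter with LOC118264308 and the deacetylase). LOC118273105 was most like the peritrophin-like LOC118274190 (rho 0.671, then 0.571 with LOC118273395 and 0.568 with LOC118274188), and LOC118273395 most like the peritrophin-like LOC118274188 (0.818) and the peritrophin-44-like genes LOC118279986 (0.697) and LOC118279993 (0.69). These points share the groups, so the coefficients describe likeness only.

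Among peritrophins, a peritrophin-44-like gene was seen almost only with tetrazolidamide. LOC118279986 (NC_049737.1, 5683232 to 5686607, plus strand) had 57.3, 20.6 and 35.1 FPKM in the 3 tetrazolidamide libraries and 0 in the 3 controls. Those levels rest on about 444, 167 and 341 read pairs. Of the other 9 libraries it was seen in emamectin benzoate 1, cyantraniliprole 1 and spinetoram 1, at 0.603, 0.322 and 0.884 FPKM or about 6, 3 and 8 read pairs, and was at 0 in the other 6. Against a floor of 3 read pairs over the control libraries it was at least 323-fold higher with tetrazolidamide (adjusted p = 0.00871), a bound for counting error alone. It was also higher with tetrazolidamide than with emamectin benzoate, cyantraniliprole and spinetoram, at log2 differences of 7.58 (SE 1.94), 8.41 (SE 2.04) and 7.01 (SE 1.88) and adjusted p = 0.0248, 0.0272 and 0.0405. The call against control held in each of 25 alternatives, whereas DESeq2 gave adjusted p = 0.126, 0.0977 and 0.192 against the other treatments. The call against emamectin benzoate ended without emamectin benzoate 2 or 3 or tetrazolidamide 1 or 3 (adjusted p from 0.0587 to 0.0759), against cyantraniliprole without cyantraniliprole 2 or 3 or tetrazolidamide 1 or 3 (0.0676 to 0.0942), and against spinetoram without spinetoram 2 or 3 or any tetrazolidamide library (0.0663 to 0.108).

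The other peritrophin-44-like gene, LOC118279993 (NC_049737.1, 6388379 to 6391741, plus strand), was also higher with tetrazolidamide, at 0.673, 6.19 and 11.5 FPKM. It had 0, 0 and 0.281 FPKM in control, so the groups did not overlap, although tetrazolidamide 1, where LOC118279986 was highest, lay among the other treatments. The log2 fold change was 6.10 (SE 2.02, adjusted p = 0.0483). That call ended without 12 of the 15 libraries taken singly, all but control 3, emamectin benzoate 2 and spinetoram 3 (adjusted p from 0.0509 to 0.143), with the replicate block (0.0626), with no filter (0.055) and in a fit of only these 2 groups (0.0671). The pair summed rose with tetrazolidamide by 8.91 (adjusted p = 0.00526), and differed from emamectin benzoate by 6.42, from cyantraniliprole by 5.75 and from spinetoram by 5.20 (adjusted p = 0.017, 0.0325 and 0.0436). The probable chitinase 2 gene beside LOC118279986 on the opposite strand, LOC118280071, had 3.36, 2.77 and 2.45 FPKM with tetrazolidamide against 1.64, 1.01 and 3.62 in control, which overlap.

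**Figure D2:**
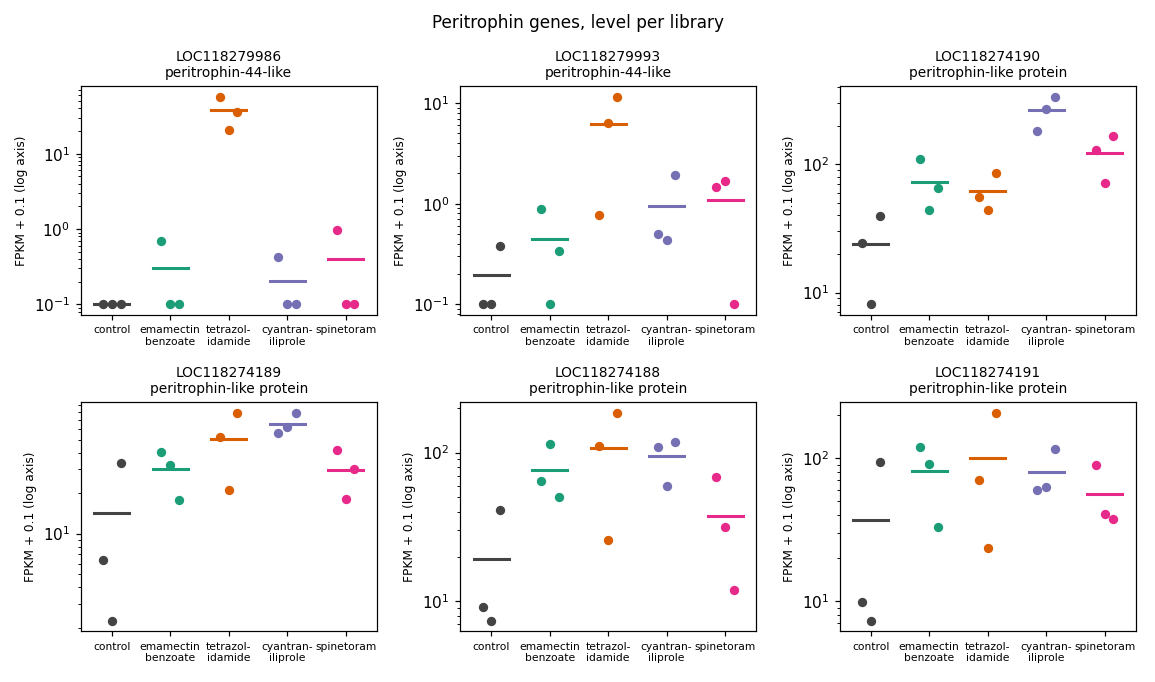
Level of 6 peritrophin genes in each library. The y axis is FPKM + 0.1 on a log axis, with a point per library and a bar at the group mean (n = 3). LOC118279986 stands at 20.6 to 57.3 FPKM with tetrazolidamide and below 1 elsewhere, LOC118274190 is highest with cyantraniliprole, and in the cluster of 4 control 3 lies above the other controls.

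A cluster of 4 peritrophin-like genes held most of the summed peritrophin level in each library. LOC118274190 (NC_049728.1, 9052881 to 9054772, minus strand) had 24.0, 7.99 and 39.6 FPKM in control and 181, 270 and 337 with cyantraniliprole, where it was highest. It had 130, 71.9 and 165 FPKM with spinetoram, 55.4, 43.7 and 85.7 with tetrazolidamide and 109, 44.0 and 65.6 with emamectin benzoate, so that each treated library was above all controls. It rose with cyantraniliprole by 3.43 (SE 0.56, adjusted p = 0.013), with spinetoram by 2.49 (SE 0.54, adjusted p = 0.0279) and with tetrazolidamide by 1.58 (SE 0.52, adjusted p = 0.0474), while the value for emamectin benzoate was 1.71 (SE 0.52, adjusted p = 0.0902). Tetrazolidamide was lower than cyantraniliprole by -1.85 (SE 0.53, adjusted p = 0.0424). The call with cyantraniliprole held without any single library. That with spinetoram ended without control 1, control 2, spinetoram 1 or spinetoram 3 (adjusted p from 0.0579 to 0.0915). In fits of only the 2 groups compared, the calls with cyantraniliprole and spinetoram both ended (0.0984 and 0.195). The tetrazolidamide call ended without any 1 library but control 3, emamectin benzoate 1 and tetrazolidamide 2 (0.0515 to 0.186), with no filter (0.0547), with limma-trend (0.0566) and in a fit of only these 2 groups (0.138). The difference between the 2 treatments ended without control 1, emamectin benzoate 3, spinetoram 1 or any of their own 6 libraries (0.0503 to 0.126).

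LOC118274188 (NC_049728.1, 9020943 to 9023272, minus strand) rose with tetrazolidamide, to 111, 25.9 and 185 FPKM from 9.02, 7.33 and 41.0 in control. Tetrazolidamide 2 lay below control 3, so these groups overlap (log2 fold change 2.76, SE 0.85, adjusted p = 0.0366). The call ended without control 1, control 2, tetrazolidamide 1, tetrazolidamide 3, cyantraniliprole 1, cyantraniliprole 3 or spinetoram 2 (adjusted p from 0.0502 to 0.149) and in a fit of only these 2 groups (0.119). With the other treatments it had 64.7, 113 and 49.9 FPKM (emamectin benzoate), 108, 59.8 and 117 (cyantraniliprole) and 68.7, 31.5 and 11.8 (spinetoram), none called. LOC118274191 (NC_049728.1, 9028181 to 9030096, minus strand), the peritrophin with the next highest mean after LOC118274190, had 9.79, 7.23 and 93.5 FPKM in control. Its treated libraries ran from 23.5 to 208 and it was called in none of the 8 tests, with control 3 above 9 of the 12. Without control 3 it was called higher with tetrazolidamide (3.69, adjusted p = 0.017), and LOC118274188 was called higher with cyantraniliprole too (3.40, adjusted p = 0.0479). LOC118274189 had 6.30, 2.16 and 33.6 FPKM in control and 17.8 to 78.8 in the treated libraries. It was called in no comparison, and without control 3 it was called higher in all 4 treatments (log2 fold changes 2.77 to 3.78, adjusted p from 0.00466 to 0.0418). Control 3 was the highest control for each gene of this cluster. Leaving it out raises their fold changes by construction, so the calls without it are no independent support.

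The peritrophins beyond these lay lower. The peritrophin-1-like genes LOC118279948 and LOC118280009 had 0, 0.759 and 17.3 FPKM and 0.206, 0.497 and 4.54 FPKM in the 3 controls, and the peritrophin-48-like LOC118273224 stayed between 0.715 and 2.10 in all 15 libraries. None of the 3 was called. Without control 3, LOC118280009 was called higher with tetrazolidamide (3.58, adjusted p = 0.00235) and spinetoram (2.85, adjusted p = 0.0203), and LOC118279948 with spinetoram (4.87, adjusted p = 0.0353). Control 3 was the highest control for both, so leaving it out raises these fold changes by construction. Summed over the 9 genes, peritrophin RNA ran from 27.0 to 231.6 FPKM in control, 175.0 to 341.1 with emamectin benzoate, 147.3 to 613.9 with tetrazolidamide, 410.0 to 657.5 with cyantraniliprole and 182.8 to 346.6 with spinetoram. All 3 cyantraniliprole libraries were above the highest control, while the other treatments overlapped control through control 3.

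Summed midgut markers were higher in the treated libraries as well. The 183 genes described as trypsin, chymotrypsin, aminopeptidase N, carboxypeptidase B or a V-type proton ATPase subunit summed to 12431.7 to 13073.0 FPKM in control. They summed to 29190.7 to 39991.7 with emamectin benzoate, 13323.7 to 17382.8 with tetrazolidamide, 15368.8 to 27766.5 with cyantraniliprole and 22954.5 to 34296.2 with spinetoram, each group above all controls. Of the 183, 19 were at 0 in all libraries and 143 were tested, with 16 higher and 5 lower (emamectin benzoate), 33 and 8 (tetrazolidamide), 7 and 0 (cyantraniliprole) and 20 and 0 (spinetoram). Over all tested genes the shares called higher and lower were 2.31% and 1.78% (emamectin benzoate), 10.9% and 11.4% (tetrazolidamide), 1.99% and 0.626% (cyantraniliprole) and 2.89% and 1.12% (spinetoram). On average, emamectin benzoate had the highest midgut sum and tetrazolidamide the lowest of the treatments. The mean ratio of unlettered to chitin synthase A pair was 2.86 with emamectin benzoate (SD 0.488, n = 3). It was 1.48 with tetrazolidamide (SD 0.203), 1.6 with cyantraniliprole (SD 0.521) and 1.54 with spinetoram (SD 0.792), which are not separated by their spread. Spinetoram had the higher mean midgut sum of the last 2 (29844.4 against 21552.7 FPKM) and the lower mean ratio. The mean peritrophin sum was highest with cyantraniliprole. The part of the midgut markers in the synthase and peritrophin values was not tested.

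Among chitinases, 1 gene fell with tetrazolidamide and none of the other 11 tested was called against control in any treatment. The gene that fell is not among those given the chitinase term K01183 by the authors' orthology annotation. Whether it cuts chitin was not tested. LOC118271970 (NC_049725.1, 9842115 to 9845065, plus strand), described as chitinase domain-containing protein 1, had 2.83, 4.86 and 2.30 FPKM with tetrazolidamide against 9.40, 10.4 and 8.61 in control. It had 13.0, 9.22 and 10.2 FPKM with emamectin benzoate, 6.53, 7.65 and 7.81 with cyantraniliprole and 8.97, 6.49 and 8.61 with spinetoram, so the 3 tetrazolidamide libraries were the lowest of the 15. The log2 fold change against control was -1.40 (SE 0.22, adjusted p = 0.00141). Against emamectin benzoate it was -1.64 (SE 0.22, adjusted p = 0.000837), against cyantraniliprole -0.97 (SE 0.22, adjusted p = 0.0173) and against spinetoram -1.26 (SE 0.22, adjusted p = 0.00568). The call against cyantraniliprole ended without tetrazolidamide 1, tetrazolidamide 3 or cyantraniliprole 3 (adjusted p = 0.061, 0.0639 and 0.0555) and in a fit of only these 2 groups (0.0592), and the other 3 held in each of 25 alternatives.

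The gene described simply as chitinase, LOC118278006 (NC_049734.1, 6309319 to 6327729, minus strand), varied widely between replicates. It had 30.3, 16.3 and 272 FPKM in control and 14.9, 81.9 and 401 with cyantraniliprole, where control 3 and cyantraniliprole 3 were the highest of the 15 libraries. With tetrazolidamide it had 137, 158 and 204 FPKM and with spinetoram 24.6, 84.2 and 77.2. With emamectin benzoate it had 7.00, 5.03 and 4.97 FPKM, the 3 lowest of the 15 libraries. Tetrazolidamide exceeded emamectin benzoate by 4.98 (SE 1.23, adjusted p = 0.0172), a call that ended without any 1 emamectin benzoate library (adjusted p from 0.0585 to 0.0673). Emamectin benzoate against control gave -4.08 (SE 1.18, adjusted p = 0.0745), which did not pass.

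LOC118280071 (NC_049737.1, 5688431 to 5706767, minus strand), a probable chitinase 2 gene, was the remaining chitinase called. It had 3.36, 2.77 and 2.45 FPKM with tetrazolidamide against 1.34, 0.797 and 0.920 with emamectin benzoate, a difference of 1.55 (SE 0.46, adjusted p = 0.0398). The call ended without any 1 of these 6 libraries or cyantraniliprole 2 (adjusted p from 0.0571 to 0.13) and with limma-trend (0.0579), and its pair summed gave 0.66 with adjusted p = 0.212. The most abundant chitinase family gene was the chitinase-like protein EN03 (LOC118276216), a name for proteins related to chitinases, a group whose members often lack the enzyme's activity. It had 512, 901 and 1225 FPKM in control, 843, 989 and 921 with emamectin benzoate, 804, 759 and 399 with tetrazolidamide, 1018, 942 and 929 with cyantraniliprole and 526, 856 and 586 with spinetoram. Its groups overlapped control throughout, with log2 fold changes from -0.30 to 0.15 and no call.

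The 10 chitinases without a call had mean levels from 0.00812 to 814 FPKM. LOC118266676, a further probable chitinase 10 gene, had 8.14, 16.4 and 27.6 FPKM in control and 1.81, 4.86 and 5.47 with spinetoram, below all controls (-1.95, adjusted p = 0.0882). LOC118275898, whose description joins endochitinase A with a mucin name, had 37.1, 2.19 and 6.20 FPKM in control and 21.6, 0.334 and 60.3 with spinetoram. LOC118269748, LOC118279297, LOC118279403 and LOC118280065 stayed between 0 and 6.39 FPKM in all libraries. The probable chitinase 10 genes of NC_049715.1, LOC118264314 and LOC118264308, had 7.87, 7.15 and 5.82 FPKM and 5.39, 5.15 and 3.55 FPKM with emamectin benzoate. In control they had 15.1, 8.38 and 23.2 FPKM and 14.3, 4.54 and 15.1 FPKM (adjusted p = 0.2 and 0.221 against emamectin benzoate). The only chitin deacetylase gene, LOC118273193 (NC_049727.1, 7775959 to 7785305, minus strand), had 869, 193 and 492 FPKM in control and 210, 168 and 119 with emamectin benzoate. It had 604, 592 and 554 FPKM with tetrazolidamide, 503, 650 and 397 with cyantraniliprole, and 739, 249 and 2483 with spinetoram, a range in that group larger than any difference between group means. It was called in none of the 8 tests (emamectin benzoate against control -1.60, SE 0.67, adjusted p = 0.204). Spinetoram 3 held the highest level of 6 of the 27 genes, namely this deacetylase, both chitin synthase A genes, both of these chitinase 10 genes and the gene described as endochitinase A (LOC118275898). The 190 genes with cuticle descriptions summed to 33974.6 to 44731.3 FPKM in control and 36337.7 to 62255.0 with spinetoram. They summed to 54669.6 to 58529.1 with emamectin benzoate, 66179.9 to 78623.4 with tetrazolidamide and 39214.1 to 46515.4 with cyantraniliprole. Of 155 tested, 8 were higher and 0 lower (emamectin benzoate), 73 and 5 (tetrazolidamide), 8 and 0 (cyantraniliprole) and 17 and 0 (spinetoram). Over all tested genes the shares were 2.31% and 1.78%, 10.9% and 11.4%, 1.99% and 0.626%, and 2.89% and 1.12% in that order. The median log2 fold changes of the cuticle genes were -0.564, 2.85, 0.2 and 1.35 in that order. Their part in the values above was not tested.

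**Figure D3:**
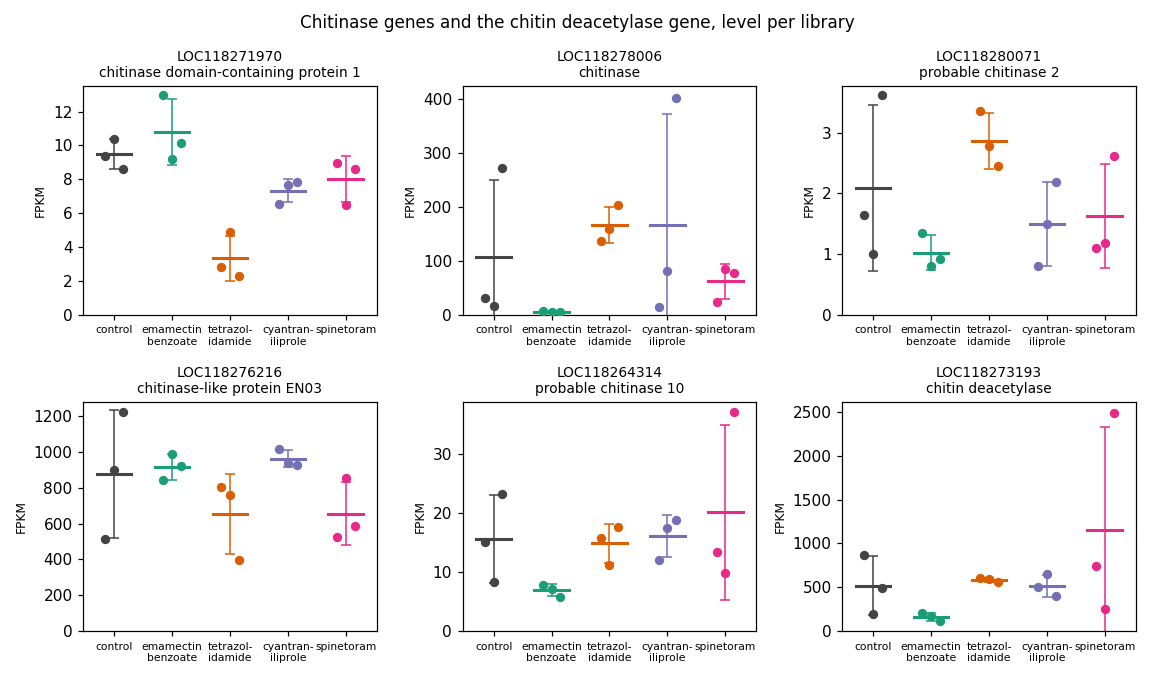
Level of 5 chitinase family genes and the chitin deacetylase gene in each library. The y axis is FPKM from 0, with a point per library, a bar at the mean and error lines of 1 SD (n = 3). LOC118271970 is lowest with tetrazolidamide, LOC118278006 is lowest with emamectin benzoate, and the deacetylase has 1 library, spinetoram 3, at 2483 FPKM.

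Counted over the 26 tested genes, tetrazolidamide had 6 higher and 1 lower than control, beside 10.9% and 11.4% of all tested genes. Cyantraniliprole had 2 higher and 0 lower (1.99% and 0.626% of all), spinetoram 3 higher and 0 lower (2.89% and 1.12%), and emamectin benzoate 1 higher and 0 lower (2.31% and 1.78%). As shares in either direction the 7, 2, 3 and 1 called genes are 26.9%, 7.69%, 11.5% and 3.85% of those tested, beside 22.3%, 2.62%, 4.01% and 4.09% of all genes. Some called genes belong to the pairs that the counting may have divided. With the genes of each pair summed, 5 were called with tetrazolidamide, 2 with cyantraniliprole, 2 with spinetoram and 1 with emamectin benzoate. Calls over all genes were then 3447, 406, 621 and 638 in that order. The test of any difference among the groups found 6, or 23.1%, beside 22.2%, so the shares for tetrazolidamide, emamectin benzoate and this test were near those of all genes. By DESeq2 the directions with emamectin benzoate were 3 higher and 3 lower, beside 848 and 935 of all genes (358 and 276 by edgeR). With spinetoram they were 3 and 1, beside 1105 and 775 of all genes (448 and 174 by edgeR). In fits of only the 2 groups compared, 3 genes were called with tetrazolidamide and 0 with each other treatment, beside 12.2% of all genes with tetrazolidamide, 0% with emamectin benzoate, 0% with cyantraniliprole and 0.0141% with spinetoram. At an unadjusted p under 0.05 those fits had 7, 11, 6 and 4 of the genes in that order, beside 30.2%, 17.4%, 16% and 14.9% of all genes.

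Leaving out LOC118279986, whose controls were at 0, the median log2 fold change of the other 25 genes was 0.30 with tetrazolidamide, -0.09 with emamectin benzoate, -0.07 with cyantraniliprole and 0.50 with spinetoram, where that of all genes was between -0.07 and 0.02. The medians of the other 8 peritrophins were 1.67, 1.25, 1.69 and 1.12 in that order, those of the 4 synthases 1.02, 0.37, 0.59 and 1.06, and those of the 12 tested chitinases 0.06, -0.82, -0.27 and -0.26. Peritrophin medians were thus above 0 in each treatment, though 4, 0, 1 and 1 of the 9 were called.

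All 3 treated libraries lay above all 3 controls for 4 of the 26 genes with emamectin benzoate, 5 with tetrazolidamide, 6 with cyantraniliprole and 3 with spinetoram, beside 10.7%, 13.1%, 12.9% and 7.96% of all tested genes. They lay below for 4, 1, 1 and 2 genes, beside 14%, 21.8%, 8.71% and 14.7%. Between treatments, tetrazolidamide differed from emamectin benzoate in 5 genes (4 higher and 1 lower, beside 7.95% and 8.82%), from cyantraniliprole in 3 (1 and 2, beside 4.64% and 6.48%) and from spinetoram in 2 (1 and 1, beside 4.58% and 6.16%). In all, 10 of the 27 genes were called in at least 1 of the 8 tests and 17 in none, beside 32.9% of all tested genes called in at least 1. Without control 3 the counts against control were 3 (emamectin benzoate), 10 (tetrazolidamide), 5 (cyantraniliprole) and 6 (spinetoram), in a fit that called 4.53%, 21%, 7.17% and 6.71% of all genes. Control 3 held the highest control level of most of these genes, so leaving it out raises their fold changes by construction.

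**Figure D4:**
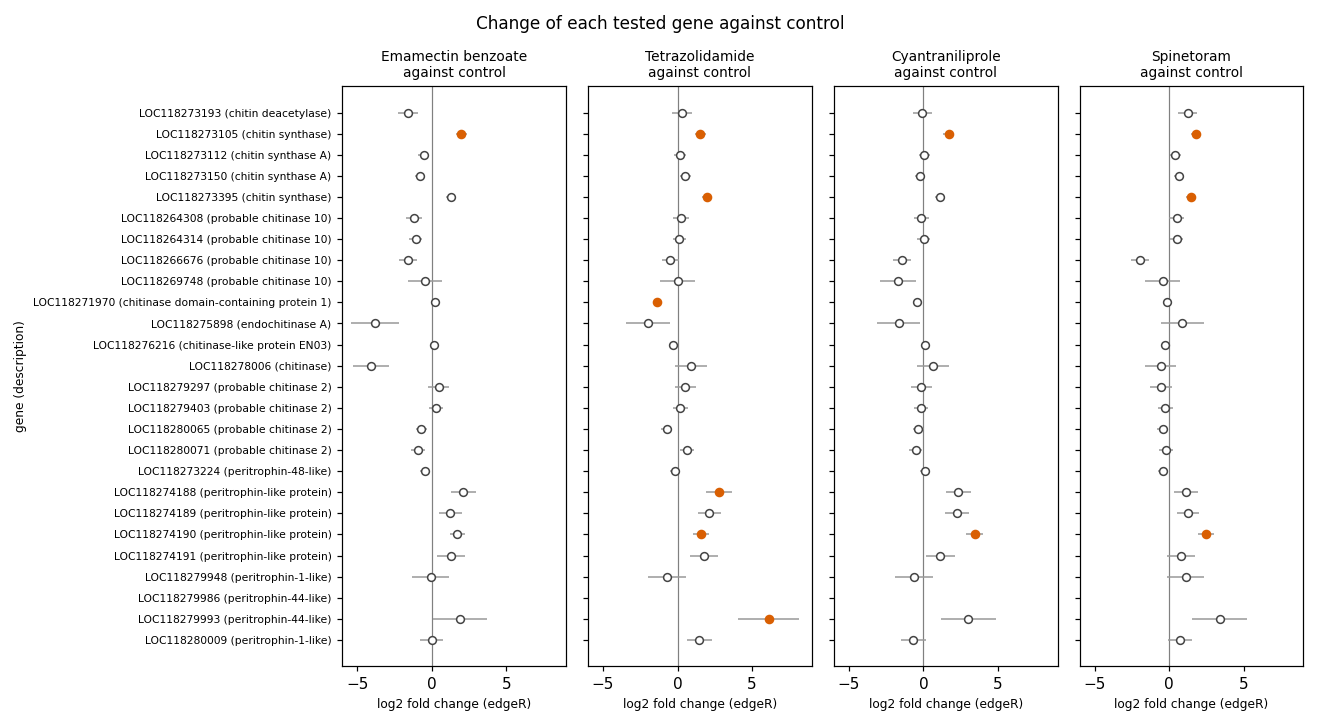
Log2 fold change of each tested gene against control (x axis, edgeR) for the 4 treatments, with 1 SE as error lines. Filled points are called at an adjusted p under 0.05 over all genes. LOC118279986, at 0 in the controls, is left without a point, and LOC118273105 is filled in all 4 panels.

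Genes that supply or finish the pathway were described by lists of words in their descriptions. Their counts are to be read against the same all-gene shares. These are 10.9% higher and 11.4% lower with tetrazolidamide, and there a count of 1 or 2 in such a list is near them. With the other treatments they are 2.31% and 1.78% (emamectin benzoate), 1.99% and 0.626% (cyantraniliprole) and 2.89% and 1.12% (spinetoram). For those treatments a count of 2 or 3 is a larger share than that of all genes, a difference that was not tested. Of 10 genes of chitin precursor synthesis, all tested, 2 were higher and 3 lower with tetrazolidamide, 2 and 0 with emamectin benzoate, 3 and 0 with cyantraniliprole and 0 and 0 with spinetoram (by edgeR). Glucose-6-phosphate isomerase (LOC118277306), shared with glycolysis, stood at 10.9 ± 2.3 FPKM with tetrazolidamide against 32.8 ± 8.6 in control (SD, n = 3; log2 fold change -1.48, adjusted p = 0.000424). A phosphoacetylglucosamine mutase gene (LOC118270638), which forms the direct precursor of UDP-N-acetylglucosamine, stood at 0.663 ± 0.095 FPKM against 3.49 ± 1.0 (-2.24, adjusted p = 0.00239). The 2 genes higher with tetrazolidamide were trehalases. The median log2 fold change of the list was 0.59 with tetrazolidamide. Its summed level was 120.2 to 138.6 FPKM in control and 139.1 to 191.3 with tetrazolidamide. With emamectin benzoate it was 146.1 to 174.5, with cyantraniliprole 181.4 to 209.3, and with spinetoram 125.9 to 212.6, which overlaps control. Of 13 genes of terminal chitin degradation, 12 were tested and 0 were higher and 2 lower with tetrazolidamide. One was the chitooligosaccharidolytic beta-N-acetylglucosaminidase (LOC118272518), which removes single sugars from chitin fragments, at 2.27 ± 0.54 FPKM against 6.13 ± 2.6 (-1.28, adjusted p = 0.0116). The other (LOC118271282) carries a proteasome subunit name beside an alpha-N-acetylglucosaminidase-like one, and is not a chitin enzyme by its first name.

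Of 13 genes of chitin organisation, named as obstructor or Skeletor proteins, 2 were higher and 0 lower with tetrazolidamide, both obstructor-E-like (LOC118262906 at 76.1 ± 11 FPKM against 17.9 ± 8.3 and LOC118262920 at 152 ± 19 against 61.6 ± 23, SD, n = 3, adjusted p = 0.0025 and 0.0237). With emamectin benzoate 0 were higher and 3 lower, with cyantraniliprole 0 and 0, and with spinetoram 1 and 0. Of 13 genes of the moulting hormone response, 2 were higher and 2 lower with tetrazolidamide. With emamectin benzoate 0 were higher and 2 lower, and 0 and 0 with cyantraniliprole and spinetoram. The summed level of these 13 genes was 116.3 to 128.2 FPKM in control, 56.8 to 77.0 with emamectin benzoate and 82.3 to 86.3 with cyantraniliprole, both below all controls. It was 108.2 to 128.0 with tetrazolidamide and 88.9 to 130.6 with spinetoram, which overlap control, and the part of these genes in the chitin and peritrophin values was not tested. Muscle and fat body markers had 1 and 3 genes called with tetrazolidamide, of 22 and 11 tested.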

How the data were processed

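The table was deposited by the authors with estimated counts and FPKM per gene and library. Per the file headers the columns are counts and FPKM; by their values the counts are estimated ones, whole numbers in steps of about 3.81 units, and the deposited FPKM values hold 0.0001 where no reads were seen (taken as 0 here). The submitters' processing notes name HISAT2 2.0.4, DESeq2, cutadapt 1.9, edgeR and StringTie 1.3.4d. The genome build, the role of each tool and the use of strand in counting are not given in the sources used here. Libraries marked strand with dUTP, per the labels' protocols.

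Genes, groups, roles and lists were chosen with earlier results of these data known. Counts were fitted with edgeR 4.0.16 in R 4.3.3 (quasi-likelihood, TMM factors, filterByExpr with a minimum count of 10, 1 coefficient per group over 15 libraries, Benjamini-Hochberg over 15505 genes, two-sided). With 3 libraries a group an exact permutation test reaches 0.1 at best and was left out. The biological coefficient of variation was 54.8%. Named were all chitin synthases, up to 6 called genes of each other role by smallest p, and the 2 most abundant of each. Genes named beyond that rule (the chitinases without a call other than LOC118276216, LOC118274189 and peritrophins below 20 FPKM) were chosen after their values were seen. Counts of called genes, the called changes of the genes described here and the larger chitin synthase changes were recomputed in other settings. These were DESeq2 1.42.0, DESeq2's size factors in edgeR, no filter, a stricter filter and fits limited to the groups compared. Further settings were a block for replicate number, limma-trend 3.58.1 with pseudocounts of 1 and 0.1, and leaving out each library. Read-pair units and summed pairs were added after the data were seen. Changes of the pathway lists and most uncalled changes were not followed through all these settings. The test was checked on simulated counts. Bounds and floors cover counting error only.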

Additional observations from a re-analysis of the deposited data

How the results depend on the processing

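Counts over all genes moved more than 1.5 times in several settings. By DESeq2 1783 genes were called for emamectin benzoate, 1532 for cyantraniliprole and 1880 for spinetoram against control, 2975 for tetrazolidamide against cyantraniliprole, 2989 against spinetoram and 6114 for any difference. The chitin and peritrophic matrix genes among them numbered 6 (emamectin benzoate), 5 (cyantraniliprole), 1 (tetrazolidamide against spinetoram) and 12 (any difference). In fits of only the groups compared, 0 genes passed for emamectin benzoate and for cyantraniliprole (2543 and 2295 at an unadjusted p under 0.05), 2 for spinetoram, 1742 for tetrazolidamide and 928 for tetrazolidamide against spinetoram. The genes described here then numbered 0, 0 and 0 (11, 6 and 4 at an unadjusted p under 0.05), 3 (tetrazolidamide against control) and 8 (against emamectin benzoate). The stricter filter left 2276 genes for tetrazolidamide and 1696 against emamectin benzoate, and raised the genes described here with emamectin benzoate to 3. With pairs summed, tetrazolidamide against emamectin benzoate had 3 of them. The share of higher calls was 60.1% by DESeq2 for cyantraniliprole (76.1% by edgeR), 47.6% for emamectin benzoate (56.5%), 58.8% for spinetoram (72%, and 54.1% by limma-trend) and 52.9% by limma-trend for tetrazolidamide against spinetoram (42.6%), while DESeq2 size factors in edgeR moved it by less than 10 percentage points in each of the 7 comparisons.

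With the replicate block, 364 genes and 2 chitin genes were called for emamectin benzoate. The 14 other counts stayed within 1.5 times. The numbers did not pair the libraries throughout. Of 30 same-numbered pairs, 4 had deviations correlated over 0.1 (range -0.154 to 0.373), and 4 of 15 libraries correlated best with one of their own number. Among these pairs were control 1 with emamectin benzoate 1 (0.373) and cyantraniliprole 1 (0.26), and those 2 treated libraries with each other (0.18). Whether these libraries of number 1 belong together was not tested.

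Leaving out 1 library gave 36 to 725 genes and 0 to 3 chitin genes for emamectin benzoate, 2356 to 3426 and 4 to 10 for tetrazolidamide, 76 to 1149 and 1 to 5 for cyantraniliprole, and 35 to 1075 and 0 to 6 for spinetoram against control. It gave 1531 to 2845 and 1 to 8 for tetrazolidamide against emamectin benzoate, 802 to 2015 and 0 to 4 against cyantraniliprole, 857 to 1911 and 1 to 2 against spinetoram, and 2050 to 4000 and 3 to 8 for any difference. The highest against control fell without control 3, except 3426 for tetrazolidamide (without spinetoram 3). Of the called changes and larger chitin synthase changes followed through these settings, none reversed its sign. The cause of these shifts was not tested. Genes almost without reads are limited by depth, such as LOC118279298, with 2 count units in emamectin benzoate 1 and 0 in each other library.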
